A study of Homo sapiens with 2 samples.

Results

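The hypoxia response and the glycolytic pathway were followed through 44 genes chosen by name: 3 subunits of the hypoxia-inducible factors (HIF), 4 genes that switch HIF off, 13 HIF targets outside glycolysis, and 24 genes that carry glucose from uptake to lactate. The cells were A549, a widely used line from a human lung adenocarcinoma. All 44 had a row among the 16399 genes listed. Of them 43 counted as expressed, with a level in either library that reached 1 count per 1000000 counts (CPM), as 12820 genes did. The PKP2 group was A549 overexpressing plakophilin 2, a desmosomal plaque protein, from an SFB-tagged construct, and the vector group was A549 with the vector. Both were at passage 5 and grown in DMEM with serum. The sources used here give neither the oxygen level nor whether the PKP2 cells were 1 clone or a pool. Each group held 1 library, so no difference below has a replicate check, and each comparison is between these libraries rather than between the conditions.

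HIF is a pair of proteins, an oxygen-sensitive alpha subunit and a stable partner, ARNT. With oxygen present, prolyl hydroxylases of the EGLN family mark the alpha subunit, and VHL, the recognition part of a ubiquitin ligase, sends it for degradation. When oxygen is short the alpha subunit persists and HIF turns on genes for glucose uptake, glycolysis, blood vessel growth, pH control and mitochondrial turnover. This control acts mainly on the alpha protein, which RNA counts do not show. Many carcinoma lines also run glycolysis at a high rate with oxygen present.

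The libraries held 16808842 estimated counts for PKP2 and 16996976 for vector. PKP2 itself stood at 268 CPM in the PKP2 library and 27.3 CPM in the vector library, a ratio of 9.82 (95% counting interval 8.92 to 10.8). The epithelial keratin KRT8 was at 5416 CPM in the PKP2 library and 5339 CPM in the vector library, whereas the epithelial adhesion molecule EPCAM was at 1.37 CPM in the PKP2 library and 1.47 CPM in the vector library. The 4 endothelial markers with a row summed to 0.952 CPM in the PKP2 library and 0.294 CPM in the vector library, and the 4 fibroblast markers to 11.6 CPM in the PKP2 library and 9.12 CPM in the vector library. Of 6 leukocyte markers 3 had a row, with CD68, which is also made outside leukocytes, at 82.5 CPM in the PKP2 library and 78.4 CPM in the vector library. Differences tracked the length and base composition of transcripts across all genes, so each was also computed with that trend removed, which is given where it moves the reading.

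Glycolytic messengers were among the most abundant of the cell. Per kilobase of longest transcript, the scale used here for any comparison between genes, GAPDH stood at 4041 CPM per kilobase in the PKP2 library and 3795 in the vector library, rank 4 of 12671 expressed genes in both. PKM, the pyruvate kinase gene, was at rank 16 in both libraries. LDHA, which makes the muscle-type subunit of lactate dehydrogenase, was at rank 23 in the PKP2 library and 19 in the vector library. The enolase gene ENO1 was at rank 29 in the PKP2 library and 24 in the vector library, and the aldolase gene ALDOA at rank 60 in both. The 15 glycolytic enzyme genes together took 2.06% of the PKP2 counts (95% exact binomial interval 2.056 to 2.070) and 2.004% of the vector counts (1.997 to 2.011). At the other end, the hexokinase gene HK2 was at 0.526 CPM per kilobase in the PKP2 library and 0.479 in the vector library, and PDK1, the kinase that shuts off pyruvate dehydrogenase, at 0.608 and 0.626. ANKRD37, a HIF target of little-known function, was the member under the expression limit, from 9 counts in the PKP2 library and 11 in the vector library.

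**Figure D1:**
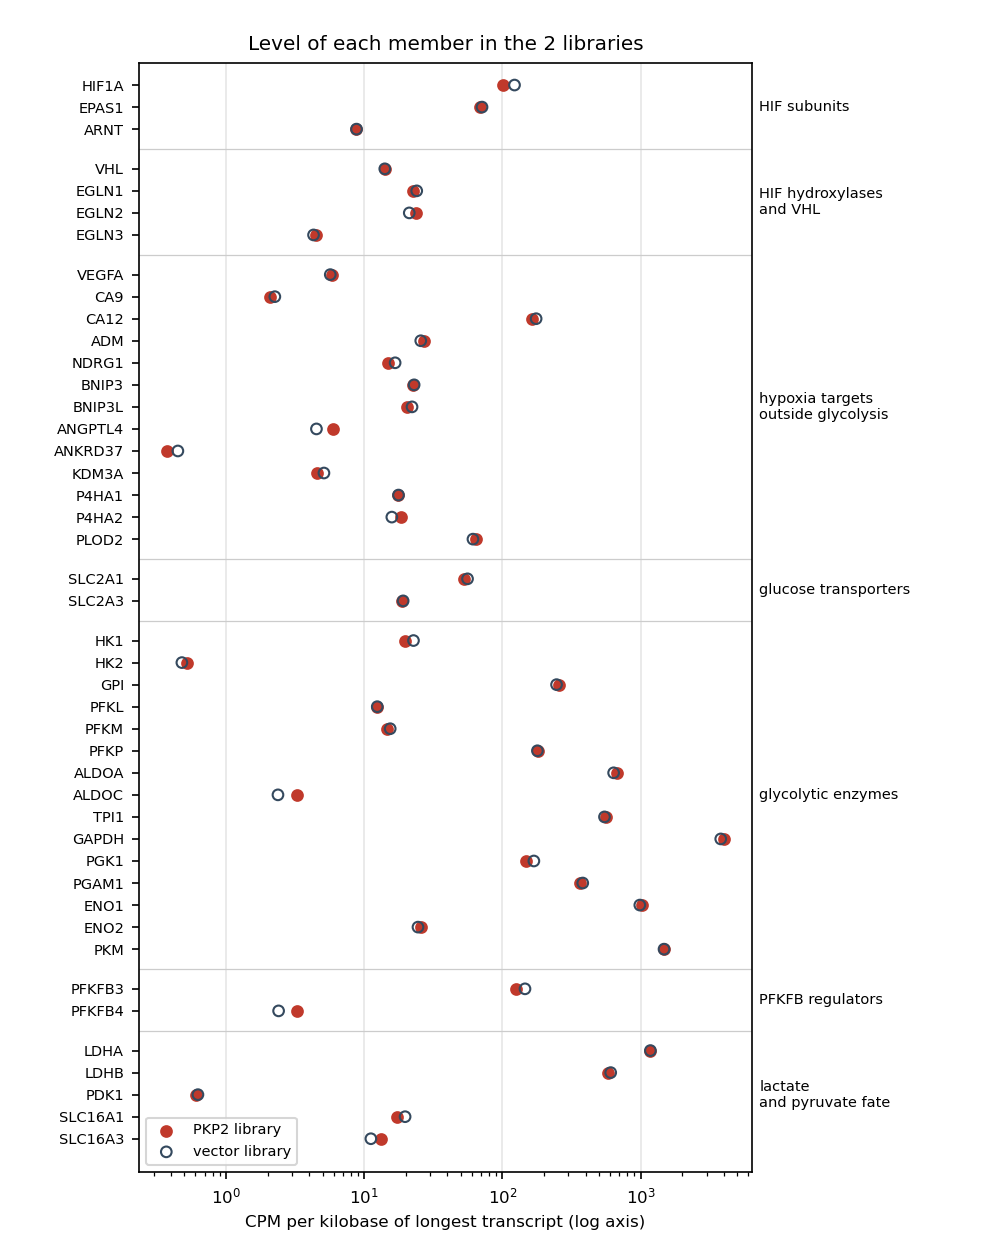
Level of each of the 44 members in CPM per kilobase of longest transcript, on a log axis, grouped by role, with filled points for the PKP2 library and open circles for the vector library. The points of a gene nearly coincide while the genes span from under 1 to 4041 CPM per kilobase.

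Between the libraries the 43 expressed members were close. Their differences, log2(CPM + 1) in PKP2 minus vector, had a median of -0.02 and ran from -0.27 to 0.41, where all 12820 expressed genes had a median of 0.00. The median size of the difference was 0.08 for members and 0.13 for all expressed genes. The SD of the differences was 0.15 for members and 0.23 for all expressed genes. Of members 0 were at least 1.5-fold higher (0.733% of all expressed genes) and 0 at least 1.5-fold lower (0.788%). At 2-fold the counts were again 0 higher (0.0858%) and 0 lower (0.101%). At a limit of 1.2-fold, 3 members were higher in the PKP2 library (6.98% of members, against 8.7% of all expressed genes) and 1 was lower (2.33%, against 11%). The 3 were PFKFB4, ALDOC and ANGPTL4, and the 1 was HIF1A. HIF1A, at -0.27, passed the limit by the least, and SLC16A3 and P4HA2, both at 0.23, came closest without passing it. With the trend removed 1 member was 1.2-fold higher, PFKFB4 (6.57% of all genes with a length), and 0 lower (6.56%). Members were mostly abundant, 33 of 43 averaging at least 50 CPM over both libraries, as did 4431 of 12820 expressed genes. Among those 33, at a level chosen after the values were seen, 0 were higher at 1.2-fold (3.75% of all genes at that level) and 1 was lower (9.25%). The median size and SD above were not recomputed at that level, so they compare sets that differ in abundance.

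**Figure D2:**
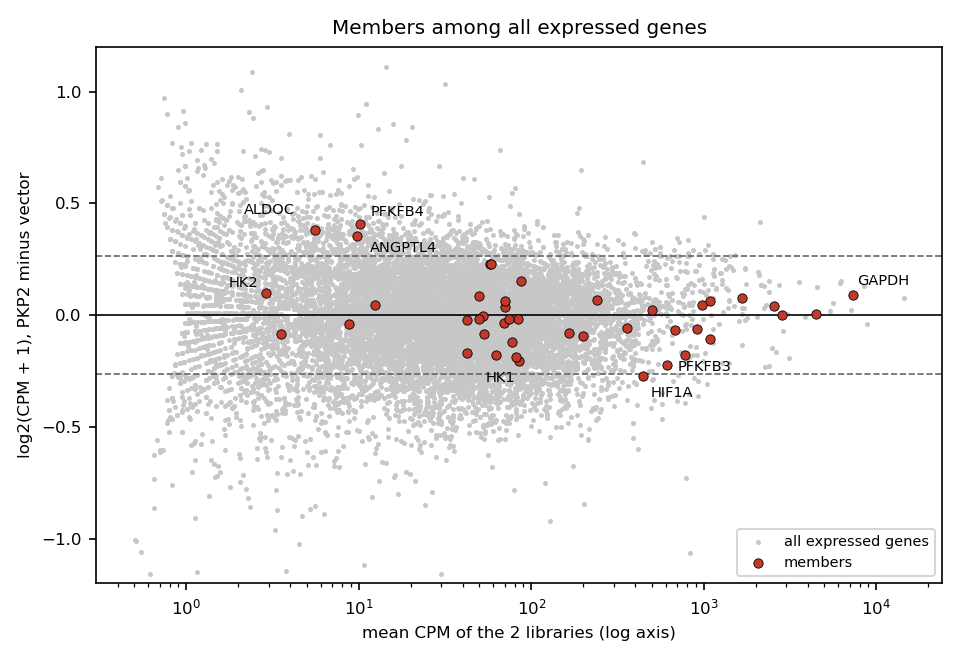
Difference of log2(CPM + 1), PKP2 minus vector, against the mean CPM of both libraries on a log axis, with grey points for all expressed genes, red points for the members and dashed lines at 1.2-fold. Members lie within the grey cloud, 4 of them past a dashed line, and 10 genes that are not members fall outside the plotted range of 1.2 either way.

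The counting interval of the ratio lay above 1 for 12 members (27.9%, against 16.3% of all expressed genes) and below 1 for 14 (32.6%, against 19.8%). Among genes averaging at least 50 CPM these were 9 of 33 members (27.3%, against 26.1%) and 13 of 33 (39.4%, against 32.4%). The intervals cover counting error only, and 4 of the 12 and 2 of the 14 changed sign once the length and GC trend was removed. The 4 were the short and abundant ALDOA, TPI1, GAPDH and ENO1, and the 2 were EGLN1 and KDM3A. Over all expressed genes 275 of the 2096 with an interval above 1 changed sign, and 144 of the 2541 below 1.

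**Figure D3:**
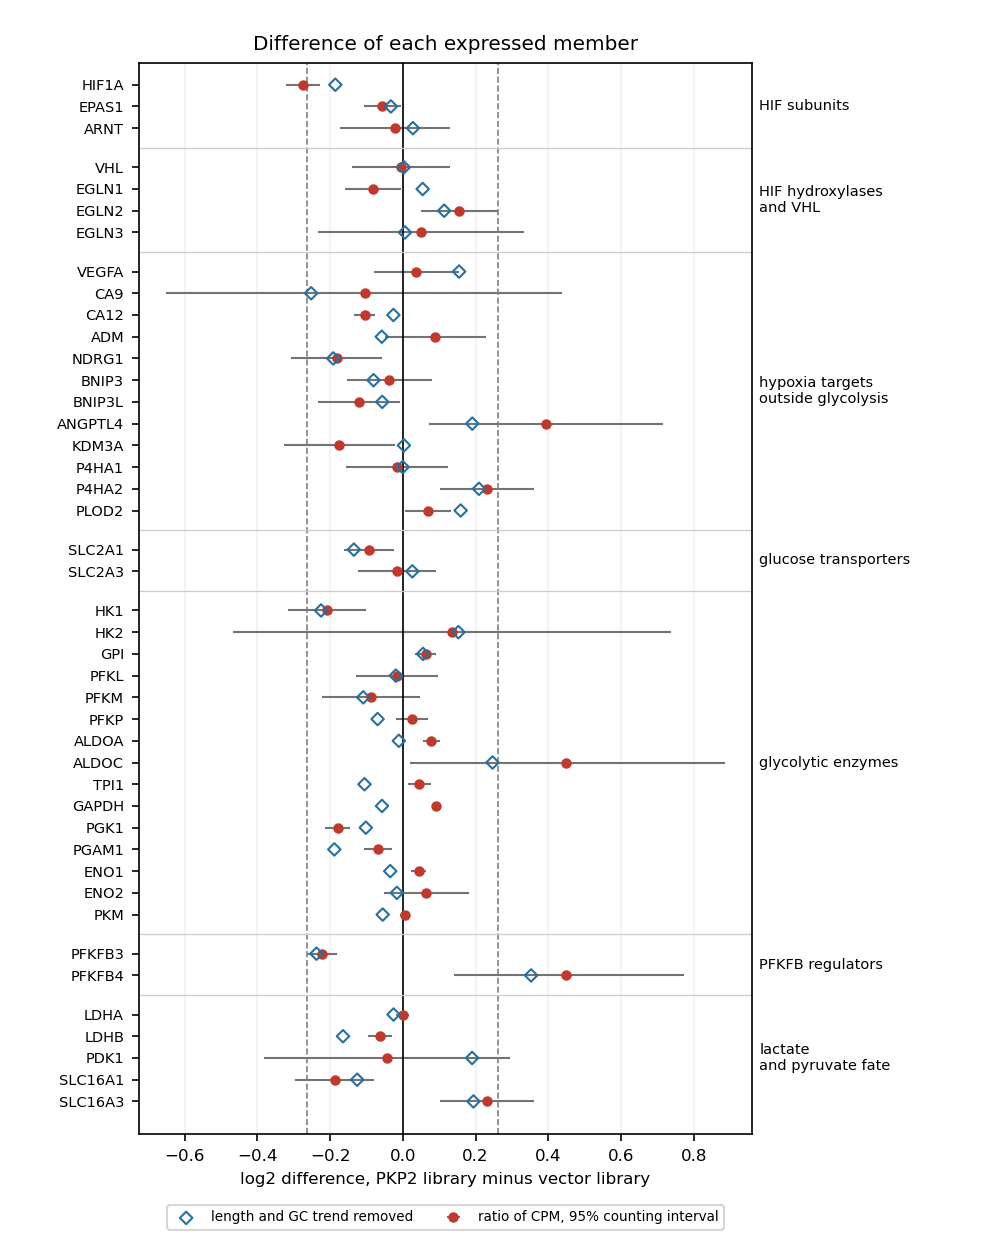
Log2 ratio of CPM, PKP2 over vector, for each of the 43 expressed members with its 95% counting interval (red), and the difference of log2(CPM + 1) with the length and GC trend removed (open diamonds), dashed lines at 1.2-fold. The red points of PFKFB4, ALDOC and ANGPTL4 lie right of the upper line and that of HIF1A left of the lower one, while of the diamonds only that of PFKFB4 is past a line.

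HIF1A, which encodes the main oxygen-sensitive subunit (chromosome 14, 61695513 to 61748259, plus strand, GRCh38), was the 1 regulator past the limit. It stood at 400.0 CPM in the PKP2 library (6723 counts) and 483.5 CPM in the vector library (8218 counts), a ratio of 0.827 (0.801 to 0.854). With the trend removed its difference was -0.19 instead of -0.27, inside 1.2-fold. EPAS1, the other main alpha subunit, also called HIF-2 alpha, was at 353.4 CPM in the PKP2 library and 367.5 CPM in the vector library (ratio 0.962, 0.928 to 0.997). ARNT, the stable partner, was at 42.3 CPM in the PKP2 library and 42.9 CPM in the vector library, with an interval that includes 1 (0.887 to 1.09). Per kilobase HIF1A made up 59.6% of the sum of both alpha subunits in the PKP2 library (58.8 to 60.5) and 63.2% in the vector library (62.4 to 64.0). Which alpha subunit leads depends on the length used, since with the median length of the coding transcripts HIF1A came to 47.4% in the PKP2 library and 51.1% in the vector library.

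The genes that switch HIF off showed small differences of either sign, with a median of 0.02. VHL was at 52.4 CPM in the PKP2 library and 52.6 CPM in the vector library (ratio 0.996, 0.907 to 1.09). EGLN1, the chief HIF hydroxylase in most cells, was at 160.7 CPM in the PKP2 library and 170.1 CPM in the vector library (ratio 0.945, 0.896 to 0.996), but its difference was 0.05 instead of -0.08 with the trend removed. EGLN2 was at 91.8 CPM in the PKP2 library and 82.4 CPM in the vector library (ratio 1.11, 1.04 to 1.198). EGLN3, itself a strongly hypoxia-induced gene, was the lowest of the family at 12.7 CPM in the PKP2 library and 12.2 CPM in the vector library (0.851 to 1.26).

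The wider HIF machinery, 14 further genes of which 13 were expressed, had a median of -0.01, with 1 gene higher (8.7% of all expressed genes) and 1 lower (11%) at 1.2-fold, or 1 higher and 0 lower with the trend removed. The coactivator EP300, with a ratio of 0.801 (0.749 to 0.856), was at 92.3 CPM in the PKP2 library and 115.3 CPM in the vector library, and lay at -0.20 instead of -0.32 with the trend removed. SIAH1, a ubiquitin ligase that acts on EGLN proteins, was at 42.6 CPM in the PKP2 library and 34.6 CPM in the vector library (ratio 1.23, 1.10 to 1.38). Its count was fractional, as reads shared between similar sequences give, and is uncertain. ELOC, the elongin C that holds VHL in its ligase, was at 60.0 CPM in the PKP2 library and 51.6 CPM in the vector library (ratio 1.16, 1.06 to 1.27).

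Targets of HIF outside glycolysis had a median difference of -0.03 over 12 expressed members, 5 above 0 and 7 below. ANGPTL4, a secreted inhibitor of lipoprotein lipase (chromosome 19, 8363289 to 8374373, plus strand), was the 1 target past 1.2-fold, at 11.1 CPM in the PKP2 library (187 counts) and 8.47 CPM in the vector library (144 counts). Its ratio was 1.31 (1.05 to 1.64), and with the trend removed its difference was 0.19 instead of 0.36. VEGFA, the vessel growth factor, was at 70.9 CPM in the PKP2 library and 69.1 CPM in the vector library (ratio 1.03, 0.946 to 1.11). ADM, the vasodilator adrenomedullin, was at 51.5 CPM in the PKP2 library and 48.4 CPM in the vector library (0.966 to 1.17). Both intervals include 1, but with the trend removed VEGFA lay at 0.15 instead of 0.04 and ADM at -0.06 instead of 0.09, each outside its counting interval.

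The pH-regulating carbonic anhydrases were represented almost wholly by CA12. It was at 1044 CPM in the PKP2 library and 1123 CPM in the vector library, a ratio of 0.930 (0.911 to 0.949), with a difference of -0.03 instead of -0.11 when the trend was removed. CA9, often used as a marker of hypoxic tumour cells, was at 3.39 CPM in the PKP2 library (57 counts) and 3.65 CPM in the vector library (62 counts), with an interval of 0.637 to 1.35. With the trend removed the CA9 difference was -0.25 instead of -0.08, inside 1.2-fold and inside that wide interval. Per kilobase CA12 made up 98.7% of the sum of both in each library.

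NDRG1, a stress-induced cytoplasmic protein, was at 58.7 CPM in the PKP2 library and 66.6 CPM in the vector library (ratio 0.882, 0.809 to 0.961), and removal of the trend left it at -0.19. BNIP3L, a receptor for the removal of mitochondria, was at 73.6 CPM in the PKP2 library and 80.0 CPM in the vector library (ratio 0.920, 0.851 to 0.994). Its relative BNIP3, at 68.6 CPM in the PKP2 library and 70.4 CPM in the vector library, had an interval that includes 1 (0.898 to 1.06). GENCODE names 39 pseudogenes after BNIP3, and how reads were shared with them is not given in the sources used here. The histone demethylase KDM3A was at 39.6 CPM in the PKP2 library and 44.7 CPM in the vector library (ratio 0.886, 0.797 to 0.984), and at 0.00 with the trend removed.

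The collagen-modifying enzymes had ratios of about 1 or above. P4HA2, a prolyl hydroxylase subunit with a fractional count, was at 62.2 CPM in the PKP2 library and 53.0 CPM in the vector library (ratio 1.17, 1.07 to 1.28). P4HA1, the other such subunit, was at 49.7 CPM in the PKP2 library and 50.3 CPM in the vector library (0.898 to 1.09). The lysyl hydroxylase PLOD2 was at 245.8 CPM in the PKP2 library and 234.5 CPM in the vector library (ratio 1.05, 1.003 to 1.10), and at 0.16 instead of 0.07 with the trend removed. P4HA2 thus held 51.5% of the sum of both P4HA genes per kilobase in the PKP2 library (49.2 to 53.8) and 47.2% in the vector library (44.9 to 49.6), intervals that overlap.

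Of 27 further hypoxia targets 26 were expressed, with a median of -0.01, 2 higher (8.7% of all expressed genes) and 4 lower (11%) at 1.2-fold. With the trend removed these counts were 6 higher (6.57%) and 4 lower (6.56%), so the balance of the list depends on that correction. The list was chosen with earlier results of these data known, so its counts and its extreme genes are not independent of the values. The 1 past 1.5-fold was EGFR, the epidermal growth factor receptor, at 143.6 CPM in the PKP2 library and 258.5 CPM in the vector library (ratio 0.555, 0.528 to 0.584). Its difference was -0.70 instead of -0.84 with the trend removed, still past 1.5-fold. TFRC, the transferrin receptor, was at 422.6 CPM in the PKP2 library and 564.8 CPM in the vector library (ratio 0.748, 0.726 to 0.772), and at -0.32 instead of -0.42 with the trend removed. STC1, the secreted stanniocalcin, was at 16.1 CPM in the PKP2 library and 12.8 CPM in the vector library (ratio 1.26, 1.05 to 1.52).

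The sums of SLC2A1 with SLC2A3 and of HK1 with HK2 were slightly lower in the PKP2 library. Their ratios were 0.953 (0.915 to 0.992) and 0.872 (0.811 to 0.938). The second sum leaves out the more abundant hexokinase HKDC1, given below, so it does not stand for the whole step. SLC2A1, the basal glucose transporter GLUT1, was at 192.3 CPM in the PKP2 library and 205.0 CPM in the vector library (ratio 0.938, 0.894 to 0.984). SLC2A3, the high-affinity transporter GLUT3 with a fractional count, was at 83.4 CPM in the PKP2 library and 84.4 CPM in the vector library (0.918 to 1.06). HK1, the housekeeping hexokinase, was at 78.5 CPM in the PKP2 library and 90.8 CPM in the vector library (ratio 0.865, 0.803 to 0.932), and at -0.23 with the trend removed. HK2, the form that HIF induces and that is high in many tumours, rested on 51 counts in the PKP2 library and 47 in the vector library (0.724 to 1.67). Per kilobase HK1 made up 97.4% of the sum of HK1 and HK2 in the PKP2 library (96.6 to 98.1) and 97.9% in the vector library (97.3 to 98.5). A further hexokinase, HKDC1, picked after its values were seen, exceeded both at 41.0 CPM per kilobase in the PKP2 library, where HK1 was at 19.6. Its 151.4 CPM in the PKP2 library and 155.3 CPM in the vector library had a ratio of 0.975 (0.923 to 1.03).

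Phosphofructokinase is the main committed step. The sum of its 3 genes was 629.8 CPM in the PKP2 library and 625.3 CPM in the vector library (ratio 1.01, 0.980 to 1.03). PFKP, the platelet type, was at 504.1 CPM in the PKP2 library and 495.6 CPM in the vector library, and made up 87.2% of the sum per kilobase in the PKP2 library and 86.6% in the vector library. PFKL, the liver type, was at 73.8 CPM in the PKP2 library and 74.6 CPM in the vector library, and PFKM, the muscle type with a fractional count, at 51.9 and 55.1 CPM. Each of the 3 intervals includes 1, but with the trend removed PFKP lay at -0.07 instead of 0.02, outside its counting interval.

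The PFKFB enzymes make and break fructose 2,6-bisphosphate, the strongest activator of phosphofructokinase, and here the isoforms went opposite ways. PFKFB3, the form with the highest kinase bias (chromosome 10, 6144934 to 6254644, plus strand), was at 564.8 CPM in the PKP2 library (9494 counts) and 658.4 CPM in the vector library (11191 counts). Its ratio was 0.858 (0.835 to 0.882), just inside 1.2-fold at -0.22, and -0.24 with the trend removed. PFKFB4 (chromosome 3, 48517684 to 48562015, minus strand) had the largest difference of all members, at 11.8 CPM in the PKP2 library and 8.61 CPM in the vector library. Its ratio was 1.37 (1.10 to 1.71) and its difference 0.41, or 0.35 with the trend removed, from fractional counts of 197.56 and 146.29 that are uncertain. PFKFB2, the heart type and no member of the set, was at 22.5 CPM in the PKP2 library and 33.4 CPM in the vector library (ratio 0.673, 0.589 to 0.768), and at -0.41 instead of -0.55 with the trend removed. Since PFKFB3 was far the most abundant, the sum of PFKFB3 and PFKFB4 was 576.6 CPM in the PKP2 library and 667.0 CPM in the vector library (ratio 0.864, 0.841 to 0.888).

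From fructose bisphosphate to pyruvate, the abundant enzymes differed by small steps. ALDOA was at 1704 CPM in the PKP2 library and 1615 CPM in the vector library (ratio 1.06, 1.04 to 1.07). TPI1, the triose-phosphate isomerase gene, was at 995.3 CPM in the PKP2 library and 964.6 CPM in the vector library (ratio 1.03, 1.01 to 1.05). GAPDH, which makes the first NADH of the pathway, was at 7576 CPM in the PKP2 library and 7116 CPM in the vector library (ratio 1.06, 1.056 to 1.07). With the trend removed these 3 lay at -0.01, -0.11 and -0.06, so the sign of their difference depends on that correction. GENCODE names 62 pseudogenes after GAPDH and 13 after PGAM1, whose reads may be shared. Without the trend correction the 15 enzymes summed to 20629 CPM in the PKP2 library and 20039 CPM in the vector library (ratio 1.03, 1.025 to 1.03). Leaving out GAPDH, a choice made after the values were seen, the other 14 gave 13052 CPM in the PKP2 library and 12923 CPM in the vector library (ratio 1.01, 1.004 to 1.02).

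GPI, the isomerase between hexokinase and phosphofructokinase, kept its sign, at 1116 CPM in the PKP2 library and 1069 CPM in the vector library from a fractional count (ratio 1.04, 1.02 to 1.07) and at 0.06 with the trend removed. PGK1, the first enzyme to yield ATP, was lower, at 728.1 CPM in the PKP2 library and 824.6 CPM in the vector library (ratio 0.883, 0.862 to 0.905), and lay at -0.10 instead of -0.18 with the trend removed. PGAM1, the mutase that follows it, was at 664.7 CPM in the PKP2 library and 697.0 CPM in the vector library from a fractional count (ratio 0.954, 0.929 to 0.979), and at -0.19 instead of -0.07 with the trend removed. ENO1 was at 2588 CPM in the PKP2 library and 2511 CPM in the vector library (ratio 1.03, 1.02 to 1.04), but at -0.03 with the trend removed. PKM, at 4466 CPM in the PKP2 library and 4449 CPM in the vector library, had an interval of 0.994 to 1.01, and lay at -0.06 instead of 0.01 with the trend removed. Gene-level counts do not separate its M1 and M2 splice forms.

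The brain-type isoforms were minor within their steps. ALDOC (chromosome 17, 28573115 to 28577264, minus strand) was past 1.2-fold, at 6.43 CPM in the PKP2 library (108 counts) and 4.71 CPM in the vector library (80 counts). Its ratio was 1.37 (1.01 to 1.85), and its difference was 0.25 instead of 0.38 with the trend removed. It made up 0.480% of the aldolase sum per kilobase in the PKP2 library (0.394 to 0.579) and 0.371% in the vector library (0.295 to 0.462). ENO2, the neuronal enolase, was at 72.3 CPM in the PKP2 library and 69.2 CPM in the vector library (0.964 to 1.13). It made up 2.46% of the enolase sum per kilobase in the PKP2 library and 2.42% in the vector library. Among all genes ENO2 was not low, at rank 2527 of 12671 in the PKP2 library.

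At the end of the pathway LDHA was at 2839 CPM in the PKP2 library and 2840 CPM in the vector library (ratio 1.00, 0.987 to 1.01), and at -0.03 with the trend removed. LDHB, the heart-type subunit that favours lactate use, was at 893.7 CPM in the PKP2 library and 933.3 CPM in the vector library (ratio 0.958, 0.936 to 0.979), and at -0.16 with the trend removed. LDHA made up 66.9% of the sum of both per kilobase in the PKP2 library (66.5 to 67.3) and 66.0% in the vector library (65.5 to 66.4). PDK1 was at 8.63 CPM in the PKP2 library and 8.88 CPM in the vector library (0.768 to 1.23), and at 0.19 instead of -0.04 with the trend removed.

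The monocarboxylate transporters, which move lactate across the membrane, had ratios on opposite sides of 1. SLC16A1, or MCT1, was at 75.9 CPM in the PKP2 library and 86.4 CPM in the vector library (ratio 0.878, 0.814 to 0.947). SLC16A3, or MCT4, the HIF-induced exporter with a fractional count, was at 63.3 CPM in the PKP2 library and 53.9 CPM in the vector library (ratio 1.17, 1.07 to 1.28). Removal of the trend left them at -0.13 and 0.19. Their sum was 139.2 CPM in the PKP2 library and 140.3 CPM in the vector library (ratio 0.992, 0.937 to 1.05). SLC16A3 held 43.1% of that sum per kilobase in the PKP2 library (41.1 to 45.1) and 36.1% in the vector library (34.2 to 38.1), intervals that do not overlap. Nor did the intervals of the HIF1A, EGLN1, EGLN2, PFKFB3 and LDHA shares within their families, and all cover counting error only. How often such intervals fail to overlap among other genes was not counted. The shares were not recomputed with the trend removed, which put EGLN1 at 0.05 instead of -0.08 and EGLN2 at 0.11 instead of 0.15. With the median length of the coding transcripts SLC16A3 led, at 66.8% in the PKP2 library and 60.1% in the vector library.

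**Figure D4:**
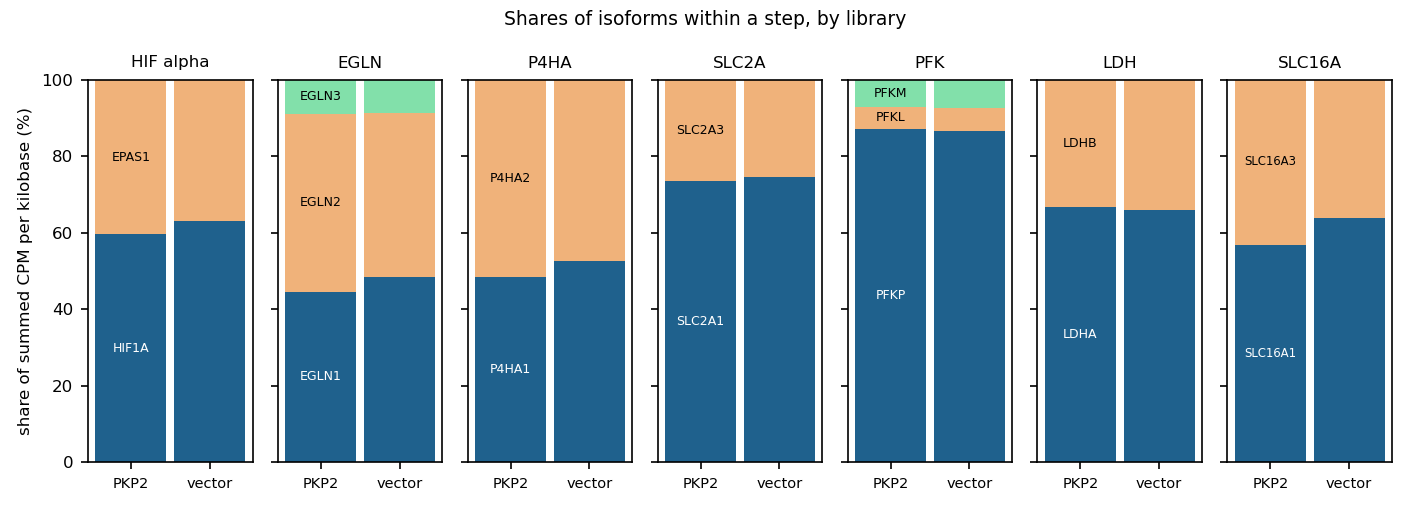
Share of each isoform in the summed CPM per kilobase of 7 families, with the PKP2 library left of the vector library. The bars of a family are close, and SLC16A is the family furthest apart of the 7 (SLC16A3 at 43.1% in the PKP2 library and 36.1% in the vector library).

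Pyruvate oxidation, the alternative to lactate, had 12 expressed genes with a median of -0.07, or -0.01 with the trend removed, 0 higher (8.7% of all expressed genes) and 1 lower (11%) at 1.2-fold. The 1 was PDK4, another kinase that inhibits pyruvate dehydrogenase, at 70.7 CPM in the PKP2 library and 86.8 CPM in the vector library (ratio 0.814, 0.754 to 0.880). With the trend removed it lay at -0.23, inside 1.2-fold, and 0 genes of the list were lower. DLAT, a core subunit of that enzyme, was at 69.5 CPM in the PKP2 library and 79.0 CPM in the vector library (ratio 0.880, 0.813 to 0.953). MPC1, a subunit of the mitochondrial pyruvate carrier, rested on 98 counts in the PKP2 library and 85 in the vector library (0.863 to 1.58). Among 25 other isoforms and transporters of glycolysis 21 had a row and 11 were expressed, 2 higher (8.7% of all expressed genes) and 3 lower (11%) at 1.2-fold, with a median of 0.04. With the trend removed 1 was higher and 1 lower. SLC2A6, a lysosomal relative of the glucose transporters, was at 37.9 CPM in the PKP2 library and 29.2 CPM in the vector library (ratio 1.30, 1.151 to 1.46). SLC2A13, a proton-coupled inositol transporter, was at 17.7 CPM in the PKP2 library and 24.4 CPM in the vector library (ratio 0.725, 0.623 to 0.844), and at -0.26 instead of -0.44 with the trend removed, inside 1.2-fold.

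HIF binds short elements with the core ACGTG or GCGTG, which on the other strand read CACGT or CACGC. Of the 38 members with a promoter sequence in RefSeq (build GRCh38.p14), 31 held at least 1 such core in the 250 bases before 1 of their start sites (81.6%, against 65.3% of expressed genes). A gene can have several start sites, and per window the shares were 59.7% of 67 windows of members and 55.1% of windows of expressed genes. CACGTG, the E-box of other factors, holds a core on both strands. The stretches below were picked because they belong to members past 1.2-fold or, for LDHA and PGK1, to abundant targets long known for their HIF elements. They run 5′ to 3′ toward the gene, outside every exon in GENCODE, with the cores in capitals. That of ALDOC, with 5 cores, overlaps an exon and is not shown.
HIF1A, chr14:61695263-61695362, plus strand: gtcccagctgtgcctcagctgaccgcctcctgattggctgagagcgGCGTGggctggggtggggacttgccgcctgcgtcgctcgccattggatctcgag
ANGPTL4, chr19:8363905-8364004, plus strand: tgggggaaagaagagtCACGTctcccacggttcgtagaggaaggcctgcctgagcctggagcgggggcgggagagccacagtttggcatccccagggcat
PFKFB4, chr3:48556924-48556982, minus strand: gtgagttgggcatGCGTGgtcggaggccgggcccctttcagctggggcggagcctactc
LDHA, chr11:18394313-18394387, plus strand: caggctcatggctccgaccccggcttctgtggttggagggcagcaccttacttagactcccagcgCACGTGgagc
PGK1, chrX:78104001-78104100, plus strand: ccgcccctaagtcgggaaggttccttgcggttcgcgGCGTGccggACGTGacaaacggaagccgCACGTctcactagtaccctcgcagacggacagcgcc
A core is found both in HIF1A, which was lower in the PKP2 library, and in ANGPTL4 and PFKFB4, which were higher. PGK1, with 3 cores in its stretch, had a ratio of 0.883. LDHA, with 5 cores in its 250 bases, of which the 2 in the stretch shown form an E-box, had a ratio of 1.00. A match to so short a core describes the letters and not binding.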

How the data were processed

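Per the labels' protocols, Trizol RNA went into Illumina TruSeq libraries. The authors deposited estimated counts, 1 value per Entrez gene ID and library, without depth scaling. The submitters' processing notes list HISAT2 2.0.4, Bowtie2, RSEM 1.2.12 and GRCh38.p12. The sources used here give no order of these tools, annotation, filters or strand setting. CPM was computed from each library's total, and differences are log2(CPM + 1), PKP2 minus vector. They understate differences of low genes. Ratio intervals are exact 95% Clopper-Pearson intervals on counts rounded to whole numbers. The 95% intervals of isoform shares hold the makeup of the other isoforms fixed. All intervals cover counting error only, and with 1 library per group no p-value was computed. In bulk RNA, fewer cells making a transcript and less of it per cell cannot be told apart.

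Symbols came from a RefSeq table (16183 of 16399 IDs matched), and lengths, GC content, gene positions and pseudogenes from GENCODE 29, with length and GC found for 98.8% of expressed genes. Overlapping and antisense genes cannot be separated where the strand setting is unknown, and 7 members had fractional counts. The length and GC trend was an additive lowess with a span of 0.3. The other alternatives are pseudocounts of 0.1 and 5 CPM, no filter, a filter at an average of 5 CPM, median and trimmed-mean scaling, and leaving out fractional counts. All 44 members are named, with up to 3 genes of each of 7 neighbouring lists by the largest difference at a mean of 5 CPM or more. Members and lists were chosen with earlier results of these data known. Calculations were tested on simulated data. Markers of 5 lists were looked up, and the mitochondrially encoded genes and other genes without a row were not analysed here. Some genes of the neighbouring lists are not reported here. Python 3.11.15, statsmodels 0.14.6 and scipy 1.17.1 were used.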

Additional observations from a re-analysis of the deposited data

How the results depend on the processing

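The 13 summaries of members (8 median differences and 5 counts past a fold) and the member differences were recomputed under 8 alternatives. A pseudocount of 0.1 CPM, no filter, a filter at an average of 5 CPM, and both rescalings moved no median beyond the counting intervals of its middle members, and no count beyond 1.5 times. Leaving out fractional counts removes PFKFB4, which turned the median of the PFKFB regulators to -0.22 from PFKFB3 alone, instead of 0.09, and left 2 instead of 3 members at least 1.2-fold higher. With a pseudocount of 5 CPM the members at least 1.2-fold higher numbered 1 instead of 3. Once the length and GC trend was removed they numbered 1, against 6.57% of all genes, and those at least 1.2-fold lower 0, against 6.56%, while the median of the glycolytic enzymes was -0.055 instead of 0.04. That correction moved 17 of 43 member differences beyond their counting intervals, and no member past 1.2-fold changed sign. How many of all expressed genes it moved in this way was not counted. The rescalings shifted all genes by less than 0.01. Isoform shares rest on the length used. With the median length of the coding transcripts, shares in the PKP2 library were 47.4% for HIF1A, 13.3% for EGLN1, 90.1% for SLC2A1, 84.5% for PFKP, 96.8% for PFKFB3, 99.4% for ALDOA, 99.1% for ENO1, 64.5% for LDHA, 33.2% for SLC16A1, 19.9% for P4HA1 and 99.4% for CA12, and HK1 stayed within its interval. No paired analysis was possible because each group holds 1 library. Depth limits ANKRD37, CA9, HK2, ALDOC and PDK1 most.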

Other observations

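Pathways that branch from glycolysis also had median differences near 0. The pentose phosphate pathway, which makes NADPH and ribose, had 8 of 8 genes expressed, 1 higher and 0 lower at 1.2-fold (8.7% and 11% of all expressed genes), with a median of 0.05, or -0.02 with the length and GC trend removed, when 0 were higher and 0 lower. PGLS, a lactonase of the pathway, was at 51.3 CPM in the PKP2 library and 39.7 CPM in the vector library (ratio 1.29, 1.17 to 1.43), and at 0.19 instead of 0.36 with the trend removed. The isomerase gene RPIA had a ratio of 1.12 (0.940 to 1.32) and the epimerase gene RPE, with a fractional count, one of 0.905 (0.836 to 0.979).

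Glycogen metabolism had 8 of 9 genes expressed, with a median of -0.03. PYGB, the brain-type phosphorylase, was at 309.1 CPM in the PKP2 library and 343.6 CPM in the vector library (ratio 0.8997, 0.867 to 0.934), and GYG1, the primer glycogenin, had a ratio of 0.928 (0.842 to 1.02). Of 8 genes of gluconeogenesis 5 had a row and 3 were expressed, G6PC3 with a ratio of 1.10 (1.04 to 1.17), PCK2 with 1.06 (0.945 to 1.19) and PC with 0.951 (0.834 to 1.09). FBP1, which reverses the phosphofructokinase step and was picked with its value known, had 1 count in the PKP2 library and 0 in the vector library.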
